A study of Mus musculus with 31 samples.

Results

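The genes followed here encode 8 subunits of the proteasome. The 5 immune-induced members are Psmb8, Psmb9 and Psmb10, the catalytic subunits of the immunoproteasome, and Psme1 and Psme2, the subunits of the PA28 activator. The 3 constitutive members are Psmb5, Psmb6 and Psmb7, the catalytic subunits that those of the immunoproteasome replace. They were chosen by name for these roles, and all 8 were found among the 48795 genes of the hippocampal table and the 54532 genes of the microglial table. All 8 also passed the filter on low counts in both tables.

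The study measured 3′ RNA-seq counts in hippocampi of mice with tauopathy and in primary microglia stimulated in culture, and asked in the microglia whether the DNA sensor cGAS carries the interferon response to tau. The hippocampi came from 13 mice aged 8 to 9 months, of which 7 were non-transgenic (Ntg, 4 of them male) and 6 were P301S (3 of them male). P301S mice carry a human mutant tau transgene, in this line driven by the mouse prion protein promoter, while their Cgas genotype is not stated by the labels. The microglia were grown from cortices of newborn wild-type (Cgas+/+) or Cgas-/- pups, and each genotype received vehicle, tau fibrils at 2 μg/ml or herring testis DNA (HT-DNA) at 1 μg/ml for 6 hours, with 3 libraries in each of the 6 groups. The labels do not say whether the 3 libraries of a group came from separate cultures or litters, while a legend of the study calls the samples biologically independent. The p-values measure the spread between these libraries. Cultures of the 2 genotypes also came from different pups, so genotype and litter cannot be told apart.

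The proteasome is the barrel-shaped protease that degrades ubiquitin-tagged proteins in the cytosol and nucleus. Its inner rings hold 3 kinds of active site: a chymotrypsin-like site made by Psmb5 or, in the immunoproteasome, by Psmb8, a caspase-like site made by Psmb6 or replaced by Psmb9, and a trypsin-like site made by Psmb7 or replaced by Psmb10. Interferons induce the immune subunits through factors that include IRF1 and NLRC5, and the peptides that result are well suited to loading onto major histocompatibility complex (MHC) class I. PA28, a ring of Psme1 and Psme2, caps the barrel and opens it without ubiquitin. Microglia, the resident macrophages of the brain, can raise these subunits when stimulated.

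The members lie on 5 chromosomes of the mouse genome (GRCm38, GENCODE annotation). Psmb8 (chr17:34197721-34201454, plus strand) and Psmb9 (chr17:34181987-34187764, minus strand) are neighbours within the MHC region. Psme1 (chr14:55578123-55581529, plus) and Psme2 (chr14:55587441-55591113, minus) are neighbours as well, and Psmb5 (chr14:54614119-54618022, minus) is on the same chromosome. Psmb10 is at chr8:105935735-105938444 (minus), Psmb6 at chr11:70525367-70527858 (plus) and Psmb7 at chr2:38588036-38644087 (minus). Windows from 250 bases before to 50 bases after the start were available for 7 of the 8 members, Psmb7 being the exception (RefSeq, GRCm38.p6). They were searched on both strands for the ISRE core GAAANNGAAA, bound by interferon-activated complexes, for the GAS motif TTCNNNGAA, found at genes that interferon gamma induces, and for the antioxidant response element core TGACNNNGC, which resembles the sites of the NRF factors. The windows of 5 members are printed, namely those that held a match and that of Psmb9, which held none. Those of Psmb10 and Psme2, also without a match, are left out, so the choice shows no contrast between immune-induced and constitutive genes. The printed windows are written 5′ to 3′ on the gene's own strand, with motif matches in capitals.
Psmb8 (chr17:34197945-34198244, plus): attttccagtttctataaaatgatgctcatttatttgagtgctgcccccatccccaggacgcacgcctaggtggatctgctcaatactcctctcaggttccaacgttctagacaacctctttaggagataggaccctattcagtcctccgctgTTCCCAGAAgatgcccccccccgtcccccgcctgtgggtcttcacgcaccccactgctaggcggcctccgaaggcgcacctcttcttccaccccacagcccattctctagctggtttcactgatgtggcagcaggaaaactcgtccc
Psmb9 (chr17:34187281-34187580, minus): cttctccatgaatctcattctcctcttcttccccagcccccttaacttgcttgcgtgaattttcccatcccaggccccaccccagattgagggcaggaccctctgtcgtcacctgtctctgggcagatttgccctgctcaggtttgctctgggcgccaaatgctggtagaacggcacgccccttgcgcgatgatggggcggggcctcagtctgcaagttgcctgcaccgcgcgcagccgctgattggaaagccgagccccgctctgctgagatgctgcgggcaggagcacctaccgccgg
Psme1 (chr14:55578244-55578543, plus): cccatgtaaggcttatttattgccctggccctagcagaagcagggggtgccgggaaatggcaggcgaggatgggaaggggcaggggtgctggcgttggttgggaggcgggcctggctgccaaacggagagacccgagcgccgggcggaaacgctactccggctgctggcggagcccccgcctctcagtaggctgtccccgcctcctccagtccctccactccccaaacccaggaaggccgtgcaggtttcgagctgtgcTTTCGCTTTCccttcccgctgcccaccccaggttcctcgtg
Psmb5 (chr14:54617946-54618245, minus): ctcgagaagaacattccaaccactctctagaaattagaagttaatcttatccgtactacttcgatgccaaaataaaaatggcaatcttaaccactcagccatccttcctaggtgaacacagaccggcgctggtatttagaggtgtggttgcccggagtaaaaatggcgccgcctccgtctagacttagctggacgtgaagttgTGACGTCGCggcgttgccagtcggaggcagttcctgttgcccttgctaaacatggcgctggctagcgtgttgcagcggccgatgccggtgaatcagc
Psmb6 (chr11:70525107-70525406, plus): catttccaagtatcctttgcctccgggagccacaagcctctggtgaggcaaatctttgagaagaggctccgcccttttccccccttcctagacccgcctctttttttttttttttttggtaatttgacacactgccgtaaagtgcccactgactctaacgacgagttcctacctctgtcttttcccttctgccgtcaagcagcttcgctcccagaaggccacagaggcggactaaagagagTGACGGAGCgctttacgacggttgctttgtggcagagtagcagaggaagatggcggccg

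The capitals in Psmb8 are a GAS match, TTCCCAGAA, from -97 to -89 relative to the start, which matched on both strands since the motif is its own reverse complement. The capitals in Psme1 are an ISRE core on the minus strand, from 9 to 18 bases past the start. Psmb5 and Psmb6 each held 1 antioxidant response element core, TGACGTCGC from -47 to -39 and TGACGGAGC from -9 to -1. No match to the 3 motifs lay in the window of Psmb9 or Psmb10 or in either of the windows listed for Psme2. Such matches are common by sequence alone, since 3.44% of 32851 promoter windows held the ISRE core, 8.3% the GAS motif and 12.4% the antioxidant response element core, so they are given as a description only.

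Libraries held between 25953296 and 35779977 counts in hippocampi and between 17037459 and 25174764 in microglia. The smallest count of a member was 36 (Psmb9 in Ntg hippocampi), and in microglia it was 209 (Psmb9 in Cgas-/- cells). The Cgas gene itself followed the labels, with 18.8 to 44.3 CPM (counts scaled to a common library size with the TMM method) in Cgas+/+ microglia and 3.76 to 7.45 CPM in Cgas-/- microglia. Summed microglial markers were between 3157 and 3487 CPM in Cgas+/+ cultures and between 2025 and 2537 CPM in Cgas-/- cultures, with Siglech, one of the 8 markers, at 0 in both vehicle groups. Markers of T cells, B cells and neurons each summed to no more than 2.07 CPM in any culture. Library 1 of the Cgas-/- HT-DNA group differed more from the other 2 libraries of its group (chi-square per degree of freedom 22.4 and 28.0) than any other pair of microglial replicates did (at most 10.7). Leaving it out changed no count of members called in the comparisons that use it.

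In Cgas+/+ microglia both stimuli raised all 5 immune-induced members, and HT-DNA raised all of them but Psme2 more than tau did. A gene was called when the adjusted p of edgeR's quasi-likelihood test was under 0.05 over all 13675 genes tested. Psmb9, which takes the caspase-like site, changed most on the log2 scale. It was at 41.9, 33.1 and 41.8 CPM with vehicle, at 82.4, 75.1 and 89.2 CPM with tau, and at 102, 111 and 110 CPM with HT-DNA. The 3 groups did not overlap. The log2 fold change against vehicle was 1.08 ± 0.08 (SE, adjusted p = 5.82e-12) with tau and 1.47 ± 0.08 (adjusted p = 1.89e-15) with HT-DNA.

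Psmb8, which takes the chymotrypsin-like site, was at 90.9, 78.1 and 80.6 CPM with vehicle, at 142, 132 and 141 CPM with tau, and at 164, 185 and 177 CPM with HT-DNA. Every stimulated library lay above every vehicle library, and every HT-DNA library above every tau library. Its log2 fold change was 0.73 ± 0.06 (adjusted p = 1.88e-11) with tau and 1.08 ± 0.06 (adjusted p = 1.57e-15) with HT-DNA. Psmb10, which takes the trypsin-like site, was at 86.5, 71.2 and 78.6 CPM with vehicle, at 155, 142 and 155 CPM with tau, and at 164, 194 and 182 CPM with HT-DNA. Its groups were ordered in the same way and did not overlap. Its log2 fold change was 0.93 ± 0.06 (adjusted p = 5.70e-13) with tau and 1.19 ± 0.06 (adjusted p = 7.01e-16) with HT-DNA.

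**Figure D1:**
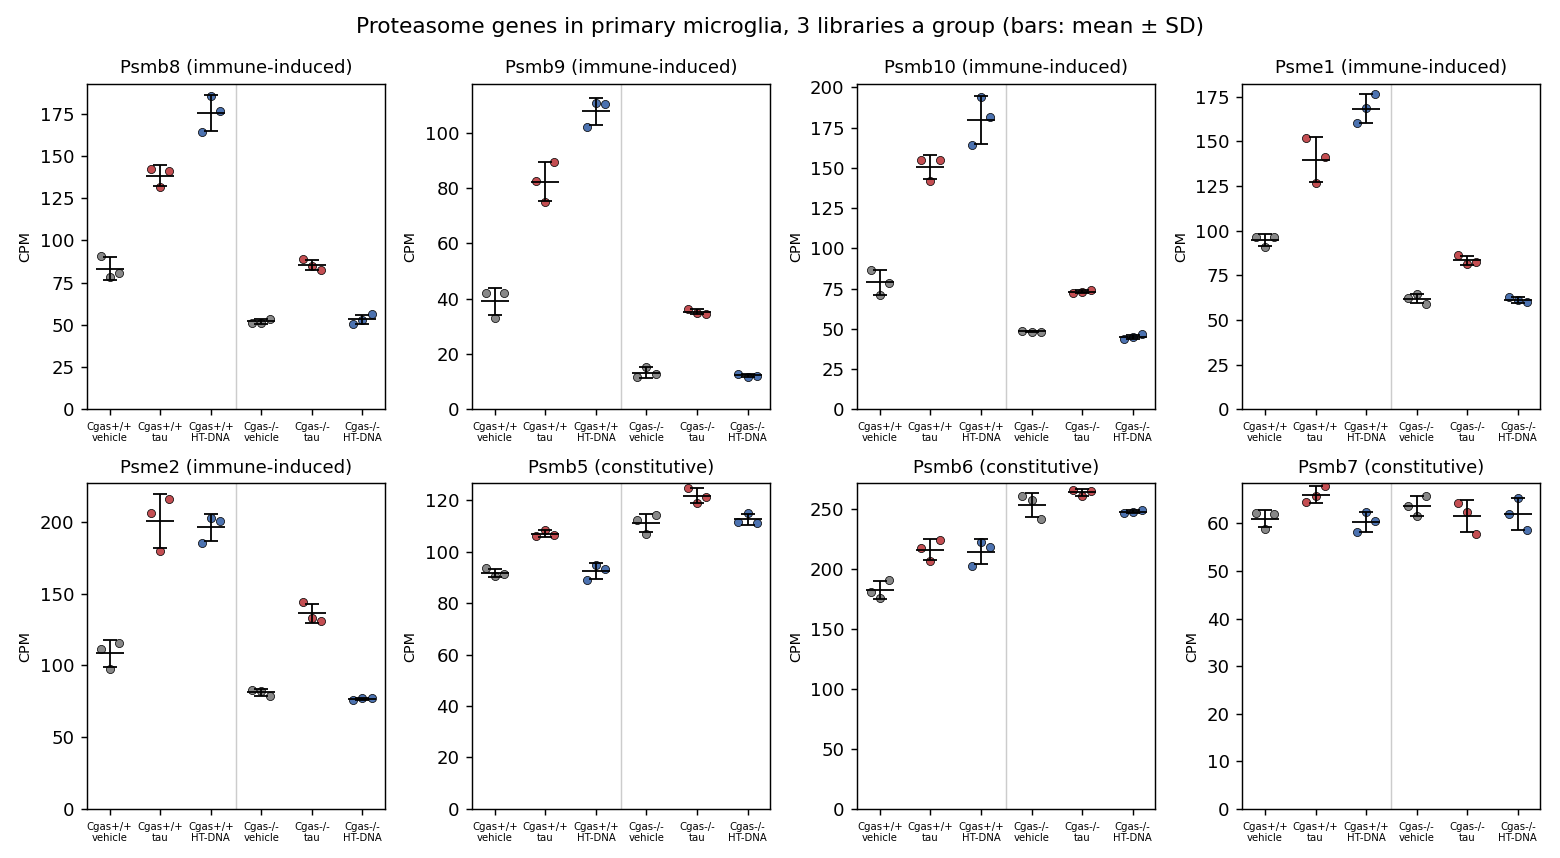
CPM (TMM-scaled) of the 8 members on the y axis in the 6 microglial groups on the x axis, with 1 point per library and bars for the mean ± SD of 3 libraries. The 5 immune-induced members rise with tau in both genotypes and with HT-DNA in Cgas+/+ cells, while Psmb7 stays between 57.8 and 67.9 CPM in all 18 libraries.

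The activator subunits rose as well, by smaller amounts for Psme1. Psme1 was at 96.5, 91.0 and 96.6 CPM with vehicle, at 152, 126 and 141 CPM with tau, and at 160, 168 and 176 CPM with HT-DNA. Its groups did not overlap, with log2 fold changes of 0.56 ± 0.05 (adjusted p = 1.95e-09) for tau and 0.83 ± 0.05 (adjusted p = 2.29e-13) for HT-DNA. Psme2 was at 112, 97.7 and 116 CPM with vehicle, at 206, 179 and 216 CPM with tau, and at 185, 203 and 201 CPM with HT-DNA. Here the tau and HT-DNA libraries overlapped, and the log2 fold changes were 0.89 ± 0.06 (adjusted p = 2.40e-12) for tau and 0.86 ± 0.06 (adjusted p = 1.33e-12) for HT-DNA. Psme2 shares sequence with Psme2b, a near-identical copy: of the runs of 50 bases in the last 500 bases of its transcripts, 66.8% also occur in Psme2b. Reads may therefore be split between them, and Psme2b, at 17.4 to 24.5 CPM with vehicle, was at 34.97 to 38.4 CPM with tau (log2 fold change 0.80 ± 0.09, adjusted p = 3.25e-08) and at 37.97 to 44.3 CPM with HT-DNA (0.98 ± 0.09, adjusted p = 3.08e-10).

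Among the constitutive members, Psmb6 rose slightly with both stimuli, Psmb5 with tau, and Psmb7 with neither. Psmb6 was at 181, 176 and 191 CPM with vehicle, at 218, 207 and 224 CPM with tau, and at 203, 223 and 218 CPM with HT-DNA. Both stimulated groups lay above vehicle and overlapped each other, with log2 fold changes of 0.24 ± 0.04 (adjusted p = 6.80e-05) and 0.23 ± 0.04 (adjusted p = 6.75e-05). Psmb5 was at 93.5, 90.4 and 91.4 CPM with vehicle, at 106, 108 and 106 CPM with tau, and at 88.8, 94.9 and 93.1 CPM with HT-DNA. Its tau libraries alone stood apart, by 0.22 ± 0.04 (adjusted p = 0.000101), while the HT-DNA difference was 0.01 with a 95% interval from -0.07 to 0.09 (adjusted p = 0.897). Psmb7 was at 58.9 to 62.1 CPM with vehicle and at 64.5 to 67.9 CPM with tau, groups that do not overlap but whose difference of 0.12 (interval 0.01 to 0.22) was not called (adjusted p = 0.101). It differed from vehicle by -0.02 (interval -0.12 to 0.09, adjusted p = 0.839) with HT-DNA. In the last 500 bases of Psmb5 transcripts 54.5% of 50-base runs recur in Gm3375, which had 2 to 15 counts in microglia.

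In all, 7 of the 8 members were called higher with tau, where 15.8% of all genes tested were higher and 12.2% lower. With HT-DNA 6 of 8 were called higher, where 22.8% of all genes were higher and 24.7% lower. The median log2 fold change of the 5 immune-induced members was 0.89 with tau and 1.08 with HT-DNA, and that of the 3 constitutive members 0.22 and 0.01, beside -0.01 and -0.03 over all genes tested. With tau against vehicle, 1 member (Psmb9) passed a limit of 1 on the log2 scale, and with HT-DNA 3 did (Psmb8, Psmb9 and Psmb10). The comparisons of tau and of HT-DNA share the 3 vehicle libraries.

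Tau and HT-DNA were also compared directly in Cgas+/+ cells. Of the 8 members, 4 were lower with tau, all immune-induced: Psmb9 with a log2 difference of -0.39 ± 0.07 (adjusted p = 7.89e-05), Psmb8 with -0.34 ± 0.05 (adjusted p = 8.68e-06), Psme1 with -0.27 ± 0.05 (adjusted p = 0.000178) and Psmb10 with -0.26 ± 0.06 (adjusted p = 0.000652). Of all genes, 17.8% were lower with tau than with HT-DNA and 17.1% higher. Psme2 was at 0.03 (interval -0.08 to 0.15, adjusted p = 0.734), and its copy Psme2b at -0.18 ± 0.09 (adjusted p = 0.112). Psmb5 was the 1 member called higher with tau than with HT-DNA, by 0.21 ± 0.04 (adjusted p = 0.000157). Psmb7 just missed the threshold at 0.13 (interval 0.03 to 0.23, adjusted p = 0.0532), and Psmb6 differed by 0.01 (interval -0.08 to 0.10).

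The ratio of an immune subunit to the constitutive subunit whose site it takes does not depend on library scaling. Only its change between groups is read, since counts of different genes are not corrected for length. Psmb8 to Psmb5 was 0.906 ± 0.0581 (mean ± SD, n = 3) with vehicle, 1.29 ± 0.0707 with tau and 1.90 ± 0.0514 with HT-DNA in Cgas+/+ cells. Psmb9 to Psmb6 was 0.213 ± 0.0220, 0.380 ± 0.0174 and 0.502 ± 0.00513 in the same order. Psmb10 to Psmb7 was 1.29 ± 0.0939, 2.28 ± 0.121 and 2.98 ± 0.147. For each pair no library of 1 group reached the range of another. On the log2 scale the pairs gained 0.51, 0.84 and 0.82 with tau and 1.07, 1.24 and 1.21 with HT-DNA.

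**Figure D2:**
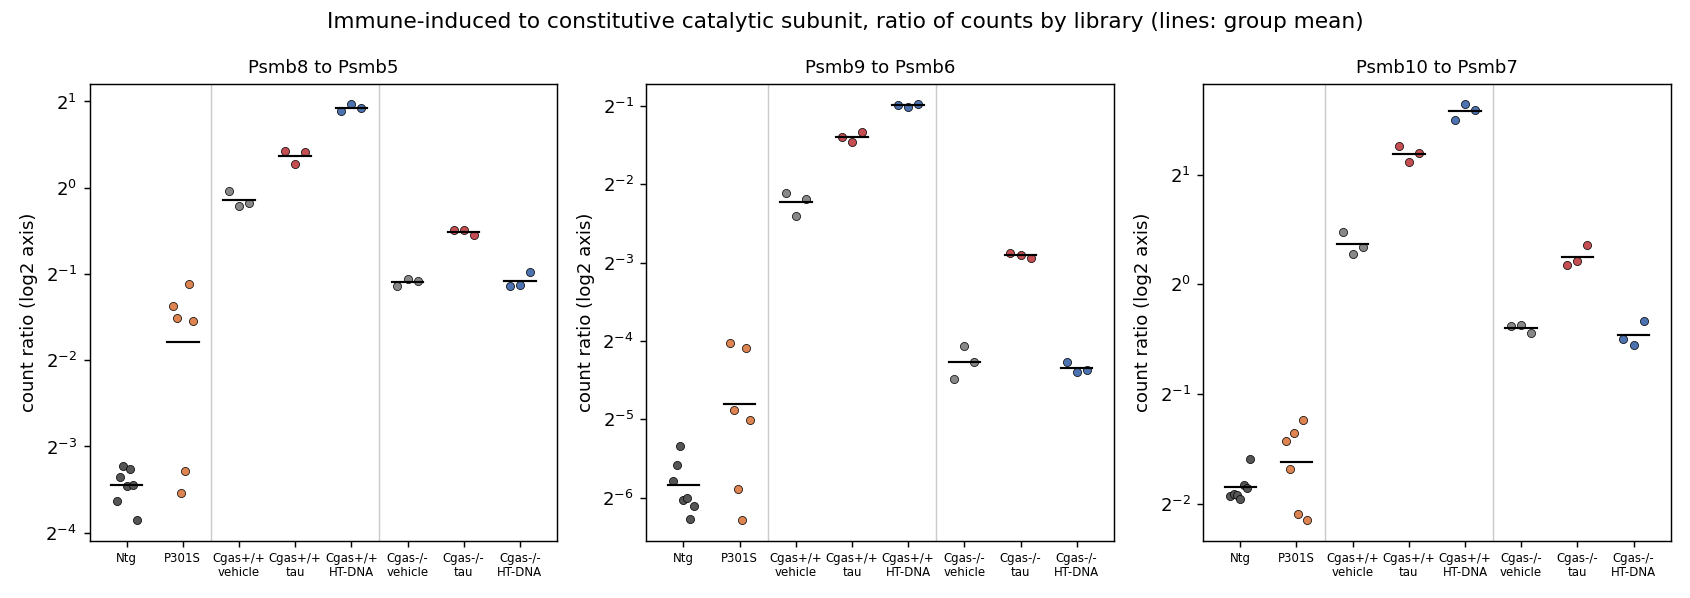
Ratio of counts within each library (log axis) for Psmb8 to Psmb5, Psmb9 to Psmb6 and Psmb10 to Psmb7 in the 8 groups on the x axis, with 1 point per library and lines for the group mean. The mean ratio of Psmb8 to Psmb5 runs from 0.0916 in Ntg hippocampi to 1.90 in Cgas+/+ microglia with HT-DNA, and P301S hippocampi spread from 0.0859 to 0.462.

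The rest of the proteasome was read from lists of its other subunits. With tau, 9 of 12 other subunits of the core particle were called higher in Cgas+/+ cells and none lower. They were led by Psma6 (0.39), Psma5 (0.51) and Psma4 (0.44). Over all genes 15.8% were higher with tau and 12.2% lower. Of 22 subunits of the regulatory particle that recognises ubiquitin chains, 13 were higher, with Psmd10 at 0.62, Psmd14 at 0.35 and Psmd11 at 0.27. Psme4, another activator, rose by 0.40, and Pomp, the maturation factor that the immune subunits need for assembly, by 0.20 ± 0.05 (adjusted p = 0.00223). The transcription factors Nfe2l1 and Nfe2l2, of which the first drives proteasome genes when the protease is inhibited, rose by 0.45 and 0.48, and Ddi2, the protease that activates Nfe2l1, fell by 0.26. The median over the core list was 0.19 and over the regulatory list 0.18.

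With HT-DNA fewer of these subunits were called higher. Of the 12 core subunits 6 were higher, led by Psma4 (0.52), Psma5 (0.54) and Psma2 (0.39), and 1, Psma7, was lower at -0.11. Of the 22 regulatory subunits 4 were higher, with Psmd8 at 0.26, and 5 were lower, with Psmd5 at -0.49, shares near the 22.8% of all genes that were higher and 24.7% that were lower. Nfe2l1 fell by 0.17, and Nfe2l2 rose by 0.22. Psme4 rose by 0.71 and Pomp by 0.20 ± 0.05 (adjusted p = 0.00189). The median over the core list was 0.12 and over the regulatory list 0.01.

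Genes that load peptides onto MHC class I rose with the immune subunits. Of 12 such genes, 9 were called higher with tau and 12 with HT-DNA, where 15.8% and 22.8% of all genes were higher. Nlrc5, the transactivator of class I genes, rose by 1.39 ± 0.09 and 2.06 ± 0.09, Tap1, a chain of the peptide transporter, by 1.31 and 1.73, and Tapbp, which bridges the transporter to class I, by 0.75 and 0.98. Of 11 interferon receptors and response factors, 9 were higher with tau, and 9 were higher and 1 lower with HT-DNA. Irf1 rose by 1.08 ± 0.09 with tau and 1.36 ± 0.09 with HT-DNA. Tap1 overlaps Psmb9 by 212 bases on the other strand, and whether counting used the strand is not given in the sources used here.

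Some markers of other cells moved with HT-DNA in the same cultures. Summed endothelial markers, 4 genes, were 87.2 to 98.3 CPM with vehicle and 276 to 279 CPM with HT-DNA, of which Flt1 rose by 1.57 on the log2 scale and Cdh5 by 1.70. Summed astrocyte markers were 4.46 to 5.80 CPM with vehicle and 10.4 to 13.7 CPM with HT-DNA, and those of perivascular macrophages 75.4 to 84.7 and 95.5 to 105 CPM. Summed microglial markers were 3235 to 3339 CPM with vehicle, 3361 to 3487 with tau and 3157 to 3242 with HT-DNA. Their part in the changes of the proteasome genes was not tested.

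Cgas-/- microglia held less of all 5 immune-induced transcripts before any stimulus. With vehicle, Psmb9 was at 11.7, 15.3 and 12.6 CPM in Cgas-/- cells against 41.9, 33.1 and 41.8 CPM in Cgas+/+ cells, a 2.95-fold lower level (log2 difference -1.56 ± 0.09, adjusted p = 5.14e-14). Psmb8 was at 50.8, 51.3 and 53.7 CPM, a log2 difference of -0.68 ± 0.06 (adjusted p = 1.24e-10). Psmb10 was at 48.9, 47.7 and 48.3 CPM, a difference of -0.71 ± 0.06 (adjusted p = 2.31e-10). For these 3 genes no library of 1 genotype reached the range of the other. The share of all genes separated in this way was not counted. Psme1, at 62.5, 64.3 and 59.0 CPM, differed by -0.61 ± 0.06 (adjusted p = 4.50e-10), and Psme2, at 82.8, 82.0 and 78.5 CPM, by -0.42 ± 0.06 (adjusted p = 2.28e-06), again without overlap.

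Of the 3 constitutive members 2 were higher in Cgas-/- cells. Psmb6 was at 261, 257 and 242 CPM in Cgas-/- cells with vehicle, 1.39-fold above Cgas+/+ cells (0.47 ± 0.04, adjusted p = 5.43e-10). Psmb5 was at 112, 107 and 114 CPM and higher by 0.28 ± 0.04 (adjusted p = 2.16e-06). Psmb7, at 63.7, 61.6 and 65.8 CPM, overlapped its Cgas+/+ values and differed by 0.06 (interval -0.04 to 0.17, adjusted p = 0.317). So 5 of 8 members were called lower and 2 higher, where 27.3% of all genes tested were lower and 24.7% higher. The ratio of Psmb9 to Psmb6 was 0.0521 ± 0.00741 in Cgas-/- cells, a log2 difference of -2.03, beside -0.95 for Psmb8 to Psmb5 and -0.76 for Psmb10 to Psmb7.

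Other genes moved with these. Of the 12 core subunits 9 were higher in Cgas-/- cells with vehicle and 1 lower. Of 5 assembly factors 4 were higher (Psmg1, Psmg2, Psmg3 and Psmg4, at 0.33 to 0.75, the last named after its values were seen). Pomp was at -0.06 (adjusted p = 0.378). Of 22 regulatory subunits 8 were higher and 3 lower, and of 4 other activators or inhibitors 1 was higher and 2 lower. Over all genes 24.7% were higher and 27.3% lower. Between genotypes with tau, 4 core subunits were higher and 3 lower, and 5 regulatory subunits higher and 9 lower. With HT-DNA these counts were 5 and 4 for the core and 7 and 0 for the regulatory list. Irf1 and Nlrc5 were lower, at -1.49 ± 0.11 and -1.65 ± 0.10. Of the 7 microglial markers tested 6 were called lower, with Cx3cr1 at -1.68 and Csf1r at -0.80, and their sum was 2064 to 2183 CPM against 3235 to 3339 CPM. The 1 neutrophil marker tested was called higher, at 0.45, with sums of 4.22 to 5.02 CPM against 2.61 to 4.21 CPM. Markers of several other cells were lower. Summed endothelial markers were 20.6 to 24.8 CPM against 87.2 to 98.3 CPM, with both tested markers called lower (Flt1 at -2.04 and Cdh5 at -3.43). Perivascular macrophage markers summed to 29.03 to 32.8 CPM against 75.4 to 84.7 CPM, with Mrc1 lower at -1.47 and F13a1 higher at 1.92. Oligodendrocyte markers summed to 51.4 to 54.4 CPM against 83.6 to 94.3 CPM, and fibroblast markers, of which 3 of 4 were called lower, to 0.502 to 0.573 CPM against 2.70 to 5.40 CPM. The part of culture composition in the genotype difference was not tested.

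With HT-DNA none of the 8 members was called in Cgas-/- microglia. Psmb9 was at 12.82, 11.80 and 11.996 CPM, within its vehicle range, and Psmb8 was at 50.6, 52.6 and 56.2 CPM, overlapping vehicle. Psmb10, at 43.8, 44.6 and 46.5 CPM, and Psme2, at 75.6, 77.3 and 76.99 CPM, lay just below their vehicle libraries without overlap, by -0.10 (interval -0.23 to 0.03) and -0.08 (interval -0.20 to 0.04). By edgeR 0 members were called, 0 had an unadjusted p under 0.05, and DESeq2 also called 0. The 8 log2 fold changes lay between -0.12 and 0.03, and the widest interval, that of Psmb9, ran from -0.33 to 0.09. Of all genes tested 1.04% were called higher and 0.278% lower, 180 genes in all, and DESeq2 called 233.

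The response to HT-DNA differed between genotypes for 6 members, tested as an interaction (the response of Cgas-/- cells minus that of Cgas+/+ cells). It was -1.59 ± 0.13 for Psmb9 (adjusted p = 1.55e-10), -1.29 ± 0.09 for Psmb10 (adjusted p = 3.66e-12), -1.04 ± 0.08 for Psmb8 (adjusted p = 4.89e-11), -0.94 ± 0.09 for Psme2 (adjusted p = 1.32e-09) and -0.85 ± 0.08 for Psme1 (adjusted p = 1.35e-09). Psmb6 followed at -0.26 ± 0.06 (adjusted p = 0.00127). Psmb5, at 0.01 (interval -0.10 to 0.12), and Psmb7, at -0.02 (interval -0.17 to 0.12), were not called. Of all genes 16.6% had a lower and 17.4% a higher response in Cgas-/- cells.

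Tau, unlike HT-DNA, raised all 5 immune-induced members in Cgas-/- microglia. Psmb9 was at 36.3, 34.9 and 34.5 CPM with tau against 11.7, 15.3 and 12.6 CPM with vehicle, 2.67-fold higher (1.42 ± 0.09, adjusted p = 1.15e-12). Psmb8 was at 88.9, 84.6 and 82.7 CPM, higher by 0.71 ± 0.06 (adjusted p = 1.05e-10). Psmb10 was at 72.5, 72.6 and 74.1 CPM, higher by 0.60 ± 0.06 (adjusted p = 1.64e-08). All 3 stood clear of their vehicle libraries. Psme2 was at 144, 133 and 131 CPM, higher by 0.75 ± 0.06 (adjusted p = 1.34e-10), and Psme1 at 86.2, 81.2 and 82.4 CPM, higher by 0.43 ± 0.06 (adjusted p = 9.77e-07), also without overlap.

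Of the constitutive members Psmb5 rose slightly, to 125, 119 and 121 CPM (0.13 ± 0.04, adjusted p = 0.0239), a call that is lost without a filter on low counts (adjusted p = 0.172) and without vehicle library 1 or 2 or tau library 1 or 3 (adjusted p from 0.0528 to 0.140). Psmb6 differed from vehicle by 0.06 (interval -0.02 to 0.15) and Psmb7 by -0.05 (interval -0.15 to 0.05). In all 6 of 8 members were called higher, where 11.2% of all genes were higher and 5.48% lower. The median of the 5 immune-induced members was 0.71, beside 0.01 over all genes tested. The ratios rose without overlap, from 0.468 to 0.702 for Psmb8 to Psmb5, from 0.0521 to 0.134 for Psmb9 to Psmb6 and from 0.759 to 1.19 for Psmb10 to Psmb7 (means of 3 libraries).

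The response to tau was called different between genotypes for 1 of the 8 members. Psmb8 rose by 0.73 in Cgas+/+ and 0.71 in Cgas-/- cells, with an interaction of -0.02 (interval -0.18 to 0.14, adjusted p = 0.941). Psmb10 was the member called, with a smaller response in Cgas-/- cells (-0.34 ± 0.09, adjusted p = 0.0142), where 3.31% of all genes had a lower and 3.61% a higher response. Psmb9 had the opposite sign, 0.34 ± 0.12, and was not called (adjusted p = 0.100), though it was without vehicle library 2 of Cgas+/+ cells (0.44, adjusted p = 0.0105) or of Cgas-/- cells (0.46, adjusted p = 0.0279). Psme1 and Psme2 were at -0.13 (interval -0.29 to 0.02) and -0.14 (interval -0.31 to 0.03). Among the constitutive members Psmb6 was at -0.18 ± 0.06 (adjusted p = 0.0727), Psmb7 at -0.17 (adjusted p = 0.186) and Psmb5 at -0.09 (adjusted p = 0.413).

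**Figure D3:**
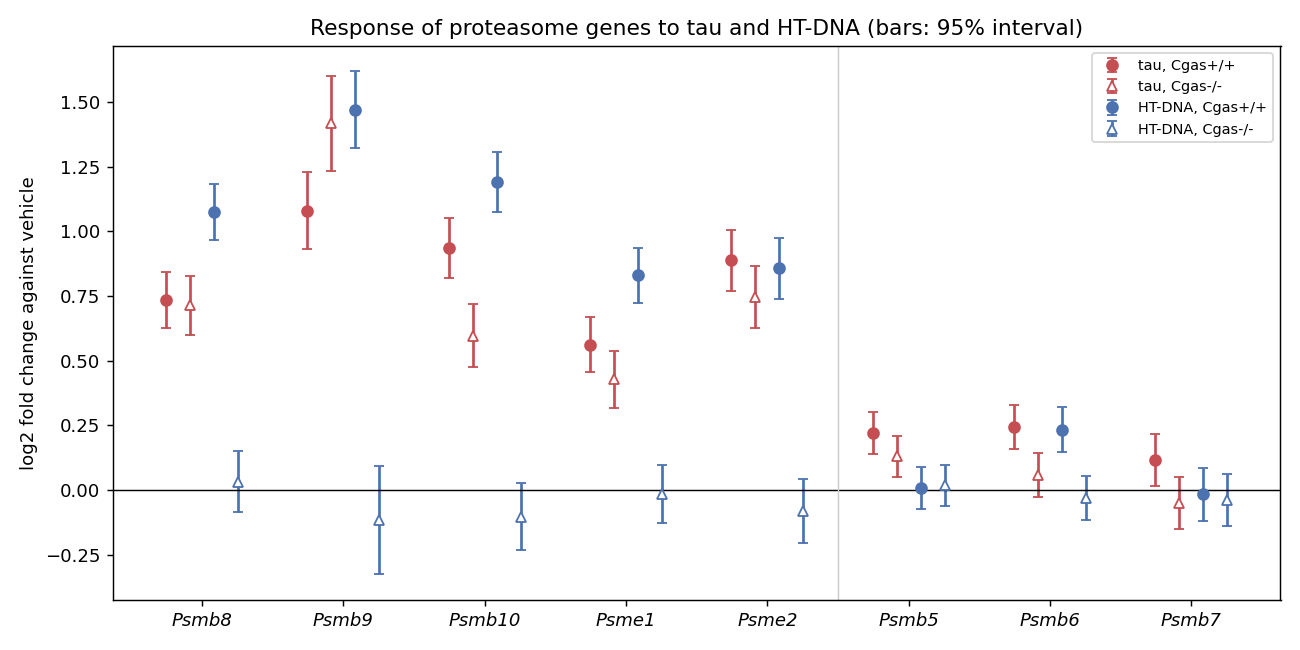
Log2 fold change against vehicle on the y axis (points, with bars for the 95% interval) for the 8 members on the x axis, with tau and with HT-DNA, in Cgas+/+ and in Cgas-/- microglia. The HT-DNA values of Cgas-/- cells lie between -0.12 and 0.03, while their tau values for the 5 immune-induced members lie between 0.43 and 1.42.

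Cgas-/- cells also held less of the immune-induced transcripts under both stimuli. With tau, all 5 immune-induced members were lower in Cgas-/- than in Cgas+/+ cells, Psmb9 at -1.22 ± 0.08 (adjusted p = 1.36e-13), Psmb10 at -1.04 ± 0.06 (adjusted p = 1.38e-14), Psme1 at -0.75 ± 0.05 (adjusted p = 2.74e-12), Psmb8 at -0.70 ± 0.05 (adjusted p = 1.63e-11) and Psme2 at -0.56 ± 0.06 (adjusted p = 5.93e-09). Psmb6 and Psmb5 were higher by 0.29 and 0.18, and Psmb7 was at -0.10 (adjusted p = 0.0961). These 5 lower and 2 higher calls stand beside 26.2% of all genes lower and 25.2% higher. With HT-DNA the differences were wider, at -3.14 ± 0.09 for Psmb9 (8.84-fold lower, adjusted p = 4.45e-22), -1.999 ± 0.06 for Psmb10, -1.72 ± 0.06 for Psmb8, -1.46 ± 0.06 for Psme1 and -1.36 ± 0.06 for Psme2. Psmb5 and Psmb6 were higher by 0.29 and 0.21, so that again 5 members were lower and 2 higher, where 30.1% of all genes were lower and 33.1% higher.

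Set in order of their level, the groups held the same upper, middle and lower places for the 3 catalytic immune subunits. Within the middle pair and the lower pair the order of the means differed between genes. Cgas+/+ cells with HT-DNA were highest, followed by Cgas+/+ cells with tau, and Cgas-/- cells with vehicle and with HT-DNA were lowest. Tau-treated Cgas-/- cells sat beside vehicle-treated Cgas+/+ cells: Psmb8 was at 82.7 to 88.9 CPM against 78.1 to 90.9 CPM, Psmb9 at 34.5 to 36.3 against 33.1 to 41.9 CPM, and Psmb10 at 72.5 to 74.1 against 71.2 to 86.5 CPM. These neighbours overlapped. The activator subunits parted from this pattern, since tau-treated Cgas-/- cells were at 81.2 to 86.2 CPM for Psme1, below the 91.0 to 96.6 CPM of vehicle-treated Cgas+/+ cells, and at 131 to 144 CPM for Psme2, above their 97.7 to 116 CPM.

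In Cgas-/- cells 2 of 12 core subunits were called higher with tau (Psma6 at 0.18 and Psma5 at 0.27). Of 22 regulatory subunits 6 were higher, with none lower in either list. Over all genes 11.2% were higher with tau and 5.48% lower. The core count is near the share of all genes that were higher. Pomp was at -0.0011 (adjusted p = 0.995). The interaction was called lower for 5 of 12 core subunits, among them Psmb1 (-0.25) and Psma4 (-0.31), and for 2 of 22 regulatory subunits (Psmc6 at -0.26 and Psmd14 at -0.26), where 3.31% of all genes were lower. For Pomp it was -0.21 ± 0.07 (adjusted p = 0.0819). Among peptide loading genes 10 of 12 rose with tau in Cgas-/- cells, with Tap1 at 1.92, Tapbp at 0.95 and Nlrc5 at 1.44 ± 0.10. Tap1 was 1 of 2 genes of that list with a called interaction, at 0.61, the other being Tapbpl at -0.43.

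Of the 11 interferon genes, 4 had a larger log2 response to tau in Cgas-/- cells and none a smaller one. The shares over all genes were 3.61% and 3.31%. Irf7 and Irf9 had interactions of 3.26 and 1.21. Levels in Cgas-/- cells were nonetheless mostly lower, with 8 of the 11 called lower and 1 higher, both with vehicle and with tau. Over all genes 27.3% and 26.2% were lower. The lowest log2 difference of the list was -5.32 with vehicle and -2.05 with tau. Irf1, at 1.198 ± 0.11 against 1.08 ± 0.09, and Nlrc5 had interactions of 0.12 ± 0.15 (adjusted p = 0.708) and 0.05 ± 0.13 (adjusted p = 0.895). With HT-DNA the interaction was called lower for 9 of 12 peptide loading genes and 8 of 11 interferon genes. Nlrc5 was at -1.99 and Irf1 at -1.46. Over all genes this interaction was lower for 16.6% and higher for 17.4%.

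In the hippocampus 1 member, Psmb8, was called higher in P301S mice, of 8 tested, where 1.39% of the 16453 genes tested were higher and 0.122% lower. In 7 Ntg mice Psmb8 was between 2.55 and 3.86 CPM with a median of 2.79. In the 6 P301S mice it was at 12.99 CPM in mouse 29, 10.7 in mouse 36, 3.02 in mouse 43, 3.46 in mouse 63, 15.3 in mouse 65 and 8.77 in mouse 77. So 4 P301S mice lay above every Ntg mouse, and mice 43 and 63 lay within the Ntg range. The log2 fold change was 1.58 ± 0.33 (adjusted p = 0.0327), or 2.99-fold in linear terms. The call was lost with sex as a covariate (1.57, adjusted p = 0.0514) and on leaving out any 1 of 9 mice, Ntg 35, 46, 61, 62, 68 or 71 or P301S 29, 36 or 65 (adjusted p from 0.0603 to 0.0953).

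Psmb9 had the same shape at a lower level. It was between 1.30 and 2.71 CPM (median 1.75) in Ntg mice, and in P301S mice at 6.15, 3.84, 1.82, 1.29, 6.75 and 3.10 CPM in the same order. The same 4 mice were above every Ntg mouse, and mouse 63 was at the lower edge of the Ntg range. The log2 fold change of 1.10 ± 0.34 was not called (adjusted p = 0.113), though it was by DESeq2 (adjusted p = 0.0325) and by edgeR without P301S mouse 43 (1.24, adjusted p = 0.0420) or 63 (1.28, adjusted p = 0.0259). Psme2 was between 14.9 and 18.3 CPM (median 16.5) in Ntg and between 17.1 and 24.0 CPM (median 19.8) in P301S mice, groups that overlap (0.30 ± 0.10, adjusted p = 0.130).

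Psmb10 and Psme1 spread widely within P301S mice. Psmb10 was between 25.5 and 41.7 CPM (median 28.2) in Ntg mice and between 22.0 and 50.1 CPM (median 37.6) in P301S mice, with a log2 fold change of 0.23 (interval -0.12 to 0.57, adjusted p = 0.594). Psme1 was between 30.8 and 38.5 CPM (median 33.6) against 26.1 and 46.9 CPM (median 36.8), with 0.10 (interval -0.13 to 0.34). None of the constitutive members was called, at -0.05 (interval -0.23 to 0.12) for Psmb5, 0.05 (interval -0.11 to 0.21) for Psmb6 and -0.01 (interval -0.15 to 0.13) for Psmb7. Psmb5 was between 28.0 and 39.4 CPM in Ntg and between 25.6 and 35.1 CPM in P301S mice, and Psmb6 between 87.6 and 123 and between 99.8 and 115 CPM. Psmb7 was between 95.7 and 125 CPM and between 97.0 and 118 CPM.

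**Figure D4:**
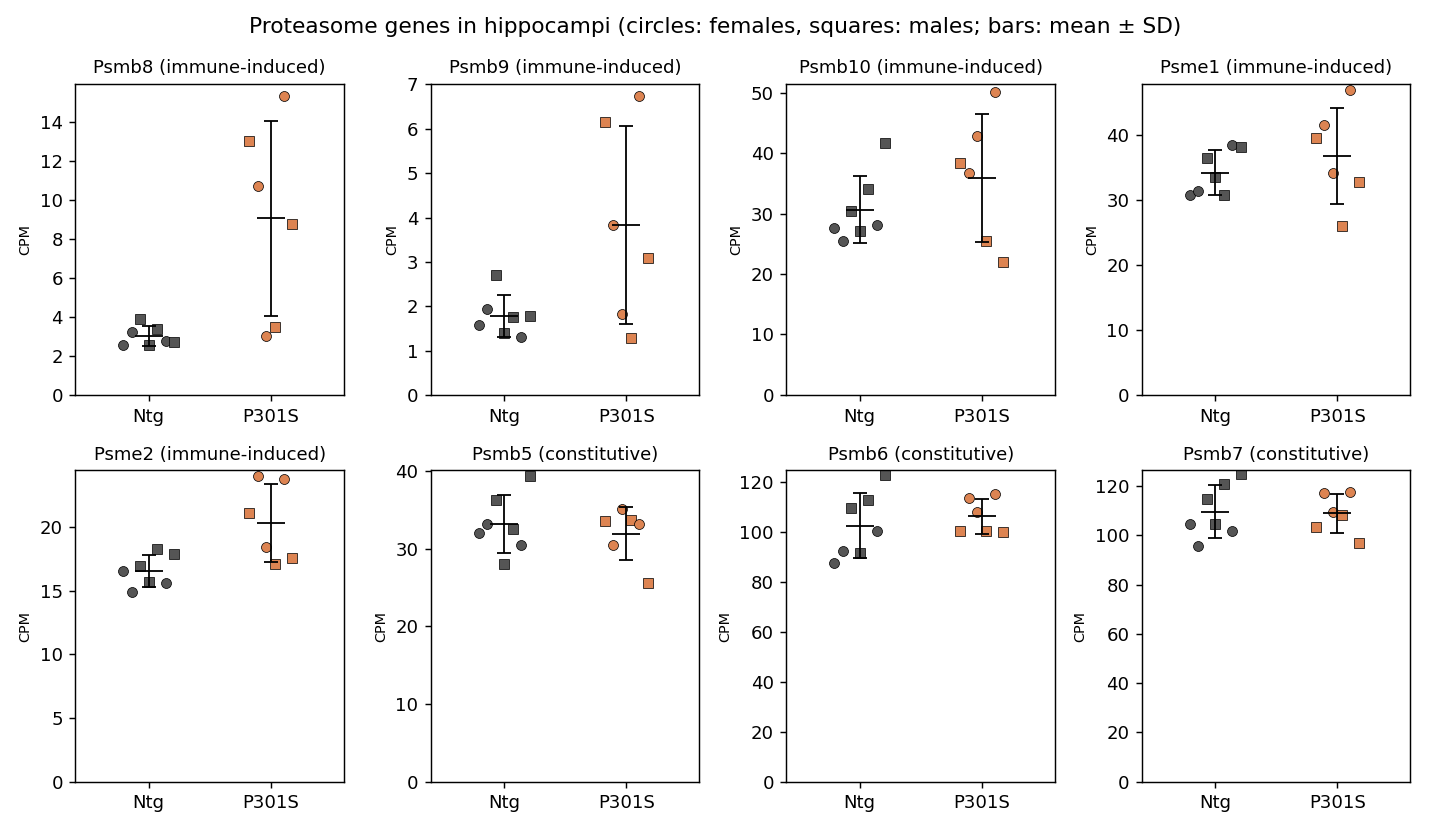
CPM of the 8 members on the y axis in 7 Ntg and 6 P301S hippocampi, with circles for females, squares for males and bars for the mean ± SD. For Psmb8 and Psmb9, 4 P301S mice stand above all Ntg mice and 2 lie among or beside them, while the constitutive members overlap throughout.

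The ratio of Psmb8 to Psmb5 was between 0.0693 and 0.107 in Ntg mice. In P301S mice it was 0.387 in mouse 29, 0.351 in mouse 36, 0.0859 in mouse 43, 0.103 in mouse 63, 0.462 in mouse 65 and 0.343 in mouse 77. The split between 4 high and 2 low mice was the same as for Psmb8 alone. Psmb9 to Psmb6 was between 0.0130 and 0.0248 in Ntg mice and between 0.0128 and 0.0612 in P301S mice. Psmb10 to Psmb7 was between 0.259 and 0.334 in Ntg mice and between 0.227 and 0.425 in P301S mice.

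Markers of microglia, leukocytes, astrocytes and T cells moved with these values. In tissue, more cells of a type and more RNA per cell cannot be told apart. Summed over 8 microglial markers, Ntg mice had between 344 and 426 CPM, and P301S mice had 742, 739, 341, 383, 730 and 536 CPM in the order above, so the same 4 mice were high. The 4 general leukocyte markers summed to between 54.6 and 67.8 CPM in Ntg mice and to 174, 184, 60.3, 64.0, 188 and 101 CPM in P301S mice. Of the microglial markers 0 of 8 were called by edgeR, where 4 had an unadjusted p under 0.05 and DESeq2 called 4. P2ry12 was at -0.15 (adjusted p = 0.687) by edgeR, and of the leukocyte markers Ptprc and Itgb2 were called, at 1.81 and 1.80. Gfap, an astrocyte marker, rose by 2.22 (adjusted p = 0.0206). The 5 astrocyte markers summed to between 1327 and 1519 CPM in Ntg mice and to 4156, 4443, 1341, 2060, 3350 and 2974 CPM in P301S mice, so the same 4 mice were highest and mouse 63 was also above every Ntg mouse. The 7 T cell markers, at far lower levels, summed to between 1.09 and 2.46 CPM in Ntg mice and to 5.15, 3.29, 1.02, 1.88, 3.41 and 3.78 CPM in P301S mice, with the same 4 mice above every Ntg mouse. Of the 2 T cell markers tested 0 were called by edgeR, 0 had an unadjusted p under 0.05 and DESeq2 called 0. B cell markers summed to no more than 0.834 CPM in any mouse. The 4 oligodendrocyte markers summed to between 3049 and 6163 CPM in Ntg and between 3842 and 7177 CPM in P301S mice, which overlap. By edgeR 0 of these 4 were called, 4 had an unadjusted p under 0.05 and DESeq2 called 1. The part of astrocytes, oligodendrocytes and T cells in the values of Psmb8 and Psmb9 was not tested. With the mean log2 CPM of the 8 microglial markers as a covariate the log2 fold change of Psmb8 was 0.63 ± 0.17 (adjusted p = 0.244). No member was called in that fit.

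**Figure D5:**
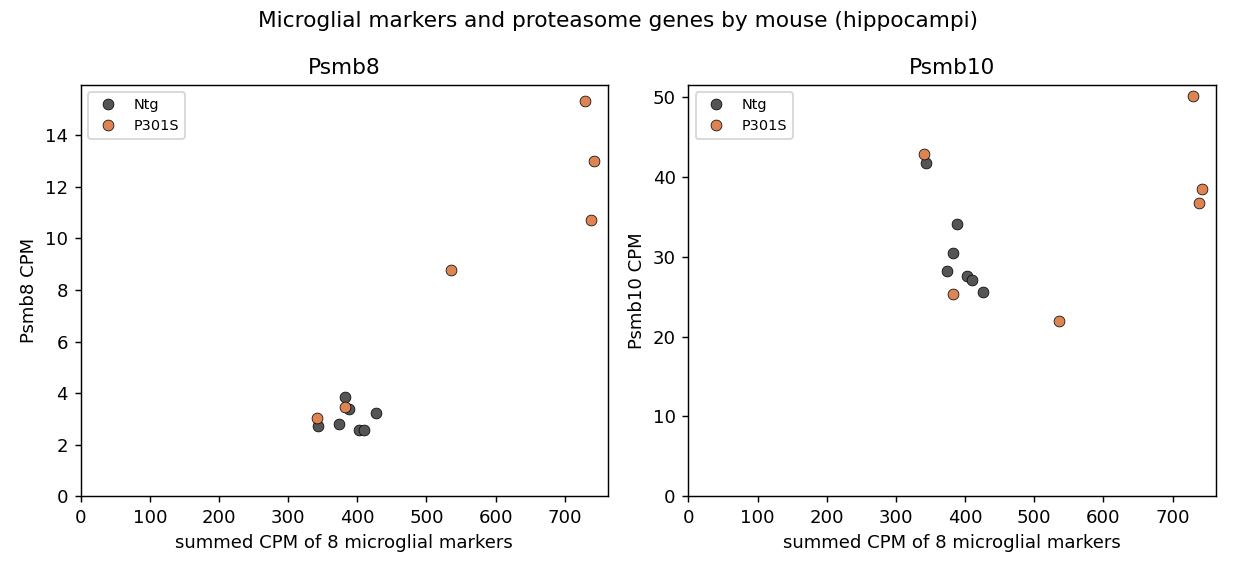
CPM of Psmb8 and Psmb10 on the y axes against the summed CPM of 8 microglial markers on the x axis, with 1 point per hippocampus. The 4 P301S mice with marker sums from 536 to 742 CPM are those with Psmb8 from 8.77 to 15.3 CPM. For Psmb8, P301S mice 43 and 63, at marker sums of 341 and 383 CPM, lie among the 7 Ntg mice. Psmb10 did not follow this split, at 42.9 CPM in mouse 43 and 22.0 CPM in mouse 77.

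No member had a called interaction of sex with genotype. By edgeR 0 of 8 members and 0% of the 16453 genes were called, while 4 members and 3897 genes had an unadjusted p under 0.05, and DESeq2 called 2 members and 1087 genes. The 2 were Psmb10, at -0.91 by DESeq2 (adjusted p = 0.0406), and Psmb7, at -0.38 (adjusted p = 0.0358), where a negative value means a smaller difference of P301S from Ntg in males. By edgeR these were -0.90 ± 0.28 and -0.37 ± 0.11, both at an adjusted p of 0.110, and without P301S mouse 29 Psmb10 was called (-1.17, adjusted p = 0.0199). Psmb10 was at 36.7, 42.9 and 50.1 CPM in P301S females and at 38.4, 25.4 and 22.0 CPM in P301S males, against 25.5 to 28.2 CPM in Ntg females and 27.1 to 41.7 CPM in Ntg males.

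No other subunit or assembly factor of the proteasome was called in P301S hippocampi. Of 11 core subunits, 22 regulatory subunits, 3 other activators or inhibitors and 5 assembly factors tested, 0 of these 41 were called by edgeR, 1 had an unadjusted p under 0.05 and DESeq2 called 0, and the medians of these lists lay between -0.01 and 0.02. Among peptide loading genes 4 of 12 were called higher: H2-D1 and H2-K1, class I heavy chains, at 2.63 and 1.95, Nlrc5 at 2.17 ± 0.42 (adjusted p = 0.0303) and B2m, the class I light chain, at 1.48, the last named after its values were seen. Of 11 interferon genes 3 were called higher, Irf7 at 2.42, Irf8 at 1.56 and Irf9 at 1.24. Over all genes 1.39% were higher and 0.122% lower. Irf1 was at 0.55 ± 0.21 (adjusted p = 0.194).

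Across libraries the immune-induced members varied together more closely in microglia than in hippocampi. These values are Pearson correlations of log2 CPM, given as a description, over libraries that share groups. Over 18 microglial libraries Psmb8 correlated at 0.98 with Psmb9, 0.99 with Psmb10, 0.99 with Psme1 and 0.97 with Psme2, and at -0.49, -0.43 and -0.0014 with Psmb5, Psmb6 and Psmb7. Over 13 hippocampi it correlated at 0.94 with Psmb9 and 0.83 with Psme2, at 0.61 with Psme1 and at 0.37 with Psmb10. Psmb10 in hippocampi stood closer to Psmb6 (0.71) and Psmb7 (0.70) than to Psmb8. It stood about as close to the immune-induced Psme2 (0.71) and Psme1 (0.69). With Psmb9 and Psmb5 it correlated at 0.51 and 0.57, so it did not group with the constitutive members alone.

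The genes most like each member over the microglial libraries, among 9461 with a mean of at least 5 CPM, were Nampt (0.996), Tdrd7 and Ccrl2 for Psmb8, Ifih1 (0.997), Phf11b and Tap1 for Psmb9, and Cflar (0.996), H2-T22 and Tmem229b for Psmb10. For Psme1 they were Samhd1 (0.995), Fnbp4 and Lgals8, and among those for Psme2 were Tmco3 (0.989) and Sppl2a. Over the hippocampi, among 11657 genes, they were H2-Q4 (0.987), Lgals9 and Lgals3bp for Psmb8 and Epb41l2 (0.966), Ccn1 and Ifitm3 for Psmb9. For Psmb10 the nearest gene was Pomp (0.967), the assembly factor, followed by Fabp3 and Ost4. Psme2 was nearest to Gadd45a (0.973) and Psme1 to Cyb5a (0.913).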

How the data were processed

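Hippocampal and microglial RNA was sequenced as QuantSeq 3′ FWD libraries per the labels, which read transcript ends, so levels were not compared between genes. The authors deposited 2 tables of raw counts per gene, 1 for hippocampi and 1 for microglia. The submitters' processing notes list GRCm38, edgeR and limma, and the aligner, annotation and strand setting are not given in the sources used here. The labels name a Zymo kit for RNA, the study's methods another kit for hippocampi. Age was given as 8 to 9 months in the labels. Doses and times came from the study's methods.

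The 2 tables were normalised and tested separately. Counts were filtered with filterByExpr, scaled with TMM and tested with edgeR 4.0.16 (R 4.3.3, limma 3.58.1), by glmQLFit and glmQLFTest, with Benjamini-Hochberg adjustment over all 16453 hippocampal or 13675 microglial genes tested. The hippocampal model held genotype, or sex, genotype and their interaction. The microglial model held 1 coefficient per group over all 18 libraries. Differences are on the log2 scale with standard errors, and intervals are 95% normal intervals unadjusted for the number of genes. CPM used TMM library sizes. Whether groups overlap was read for listed genes only, with no share over all genes, so it is a description. Likeness used log2 CPM with a prior count of 2. Alternatives were DESeq2 1.42.0, scaling by RLE, testing without a filter on low counts, a minimum fold change, fits of only the compared groups, a replicate block, covariates and leaving out each library. The code was tested on simulated data. Figures were drawn with Python 3.11.15 and matplotlib 3.10.9.

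The members and lists were chosen with earlier results of these data known, so counts over a list describe it and support nothing by themselves. The text names the 8 members always. Of the wider lists it names at most 3 called rises and 3 called falls per list and comparison with the lowest adjusted p. Irf1, Nlrc5, Pomp, Cgas and Psme2b are named where a result turns on them, and beside each immune-induced member the genes most like it, of at most 3 ranked. Marker lists are given as sums, with called or defining markers named. A few genes that these rules would name are not reported here. No pairing of the microglial libraries by replicate number was seen, as deviations of same-numbered libraries correlated between -0.0850 and 0.0823, so the replicate block stayed an alternative.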

Additional observations from a re-analysis of the deposited data

Results flagged for a closer look

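The ratio of Psmb10 to Psmb7 in Ntg mouse 71 was 0.334, apart from the other 6 Ntg mice at 0.259 to 0.282. It was the 1 group with such a gap of 22 examined, and chance gives a gap of this kind in about 1 in 20 groups.

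The response to tau differed between Cgas genotypes for Psmb10, with an interaction of -0.34 (edgeR, adjusted p = 0.0142). The response to HT-DNA differed for 6 members, with interactions of -1.04 for Psmb8, -1.59 for Psmb9, -1.29 for Psmb10, -0.85 for Psme1, -0.94 for Psme2 and -0.26 for Psmb6 (adjusted p from 3.66e-12 to 0.00127). Each is the response of Cgas-/- cells minus that of Cgas+/+ cells.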

How the results depend on the processing

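With DESeq2 the number of members called was 2 for P301S against Ntg, 2 for the interaction of sex and 2 for the interaction of tau with Cgas genotype, where edgeR called 1, 0 and 1. Without a filter on low counts the interaction of tau had 2, with Psmb9 added (adjusted p = 0.0186). For P301S against Ntg 0 members were called with sex as a covariate and 0 with the mean log2 CPM of the microglial markers as a covariate. With a minimum fold change (a log2 change beyond 1) the counts were 1 for tau and 3 for HT-DNA in Cgas+/+ cells, 1 for tau in Cgas-/- cells, 0 for tau against HT-DNA, 1, 2 and 5 between genotypes with vehicle, with tau and with HT-DNA (7 in each without the limit), and 0 and 3 for the interactions of tau and HT-DNA. Leaving out 1 library at a time gave 0 to 2 members for P301S against Ntg, 0 to 1 for the interaction of sex, 1 to 2 for that of tau, 5 to 6 for tau against HT-DNA and 5 to 6 for tau in Cgas-/- cells, and changed no other count. Psmb6 gained a call for the interaction of tau without Cgas+/+ vehicle 3, Cgas+/+ tau 2 or Cgas-/- vehicle 3 (adjusted p from 0.0371 to 0.0479). Psmb7 gained one for tau against HT-DNA without HT-DNA library 2 (adjusted p = 0.0442). The causes of these changes were not tested.

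Directions reversed only for differences that were not called. With DESeq2 and with RLE scaling Psmb7 with HT-DNA in Cgas+/+ cells became 0.019 under both, Psmb6 for tau against HT-DNA -0.018 under both, and Psmb5 for the interaction of HT-DNA -0.027 and -0.026. In fits of only the compared groups the first became 0.0017 and the last -0.050. With the microglial markers as a covariate Psme1 in P301S hippocampi became -0.064. Leaving out 1 library at a time gave, for HT-DNA in Cgas-/- cells, -0.0071 to 0.039 for Psmb5, -0.081 to 0.00026 for Psmb7, -0.0095 to 0.059 for Psmb8, -0.19 to 0.0020 for Psmb9 and -0.049 to 0.014 for Psme1. For HT-DNA in Cgas+/+ cells it gave -0.012 to 0.036 for Psmb5 and -0.042 to 0.011 for Psmb7. For P301S against Ntg it gave -0.10 to 0.0023 for Psmb5 and -0.048 to 0.026 for Psmb7, and for the interaction of sex -0.78 to 0.14 for Psmb8 and -1.15 to 0.033 for Psmb9. For tau against HT-DNA it gave -0.025 to 0.044 for Psmb6 and -0.024 to 0.11 for Psme2. For the interaction of tau it gave -0.088 to 0.027 for Psmb8, and for that of HT-DNA -0.036 to 0.033 for Psmb5 and -0.074 to 0.018 for Psmb7.

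With the replicate block every count of members called was as without it (7 for tau and 6 for HT-DNA in Cgas+/+ cells, 6 and 0 in Cgas-/- cells, 5 for tau against HT-DNA, 7 in each comparison of genotypes, 1 and 6 for the interactions), and Psmb10 kept its interaction of tau at -0.34. No pairing by number was seen, since same-numbered libraries correlated between -0.0850 and 0.0823 in their deviations and differently numbered ones between -0.0797 and 0.104. Such correlations cannot exclude that same-numbered libraries shared a culture, which the labels do not state.

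Counts limit the hippocampal values of Psmb9 (36 to 186 per library) more than any other member. With 3 libraries a group, and 6 to 7 mice, differences smaller than the printed intervals were not detectable, and 66.8% of the 50-base runs at the end of Psme2 and 54.5% at the end of Psmb5 occur elsewhere.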
